A study of Mus musculus with 2 samples.

Results

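The genes described here are the 10 feedback inhibitors of MAP kinase signaling Dusp1, Dusp2, Dusp4, Dusp5, Dusp6, Dusp10, Spry1, Spry2, Spred1 and Spred2, taken by symbol from the 23284 genes measured by RNA-seq in the leukemic stem cells (LSCs) of mice with a BCR-ABL-driven chronic myeloid leukemia (CML). All 10 symbols were found, and all 10 genes had at least 1 FPKM in both libraries. LSK cells (lineage marker-negative, Sca-1+, c-Kit high) from bone marrow of WT mice or of STAP-1 KO mice, whose Stap1 locus carries a targeted disruption, both on the C57BL/6J background, had been infected with a retrovirus that carries human p210 BCR-ABL and green fluorescent protein (GFP) and transplanted into lethally irradiated C57BL/6SJL (Ly5.1) recipients together with normal Ly5.1 bone marrow, so that the CD45.2 gate below separates donor from host and helper cells. Mice were 8 to 14 weeks old, and GFP+ CD45.2+ LSK cells were sorted 11 days after this first transplantation. There was 1 library per genotype, called WT and KO below, the labels name no treatment, and the number of mice behind each library is not given in the sources used here. The comparison asked which transcripts of LSCs differ when the adapter protein STAP-1 is missing. With 1 library on each side there is no replicate error, no test and no p-value, and every statement below compares these 2 libraries. In such bulk samples, fewer cells of a type and less RNA per cell cannot be told apart.

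BCR-ABL feeds the RAS, RAF, MEK and ERK cascade through adaptors such as GRB2 and GAB2, and active ERK turns on the genes of its own inhibitors. Sprouty proteins act near the membrane and dampen the signal from receptor tyrosine kinases to RAS, and SPRED proteins bring neurofibromin, a RAS GTPase activating protein, to the membrane. DUSP proteins of this family, also called MAP kinase phosphatases, remove phosphate from both the threonine and the tyrosine that activate a MAP kinase. They differ in their targets and in their place in the cell: DUSP1, DUSP2, DUSP4 and DUSP5 are nuclear and quickly induced, DUSP6 is cytoplasmic and acts on ERK, and DUSP10 acts on p38 and JNK. Because transcripts of many of these genes are short-lived and follow ERK activity, they are often read as a trace of recent signaling.

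RefSeq promoter windows of GRCm38.p6, from 250 bases before to 50 bases after the gene start, were found for 9 of the 10 genes (all but Dusp4). The windows of Dusp2, Dusp1 and Dusp5 are shown because they are nuclear phosphatases that differed in direction or size and were the genes of the 9 that held any of the motifs searched. Dusp2 lies at chr2:127335909-127336208 on the plus strand, Dusp1 at chr17:26508423-26508722 on the minus strand and Dusp5 at chr19:53528895-53529194 on the plus strand. Capitals mark the motif matches.
Dusp2: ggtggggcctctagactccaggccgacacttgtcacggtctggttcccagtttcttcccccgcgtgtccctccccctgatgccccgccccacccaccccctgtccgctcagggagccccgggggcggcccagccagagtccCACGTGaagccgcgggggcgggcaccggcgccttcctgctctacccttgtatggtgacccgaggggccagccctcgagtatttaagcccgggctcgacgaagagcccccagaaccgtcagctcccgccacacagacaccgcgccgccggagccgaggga
Dusp1: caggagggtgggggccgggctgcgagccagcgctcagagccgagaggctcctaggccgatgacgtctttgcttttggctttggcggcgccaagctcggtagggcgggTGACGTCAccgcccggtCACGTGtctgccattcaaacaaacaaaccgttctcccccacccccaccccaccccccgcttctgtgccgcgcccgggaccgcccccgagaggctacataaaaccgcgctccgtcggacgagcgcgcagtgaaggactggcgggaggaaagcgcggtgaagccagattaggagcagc
Dusp5: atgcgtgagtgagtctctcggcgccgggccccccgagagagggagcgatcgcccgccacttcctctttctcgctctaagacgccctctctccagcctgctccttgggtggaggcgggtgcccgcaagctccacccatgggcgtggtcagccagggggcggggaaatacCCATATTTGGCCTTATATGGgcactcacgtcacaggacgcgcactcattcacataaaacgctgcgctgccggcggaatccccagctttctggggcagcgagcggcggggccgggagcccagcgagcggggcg

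The motifs searched on both strands were the cAMP response element TGACGTCA, the AP-1 site TGANTCA, the STAT site TTCNNNGAA, the E-box CACGTG and the CArG box, which binds serum response factor. Dusp1 held the cAMP response element 143 bases before its start, and Dusp1 and Dusp2 each held the E-box, 126 and 109 bases before the start. Dusp5 held adjoining CArG boxes that began 82 and 72 bases before the start. No match overlapped another. Of the 32851 windows in the table, 1.79% held the cAMP response element, 7.15% the E-box and 1.63% the CArG box. The AP-1 site, found in 7.81% of windows, and the STAT site, found in 8.30%, were in none of the 9 windows. The windows of Dusp6, Dusp10, Spry1, Spry2, Spred1 and Spred2 held none of the 5 motifs. These are letters in a short window and not measured binding sites. The E-box was thus shared by Dusp1 and Dusp2, whose levels differed in opposite directions.

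Values are FPKM, which scale the fragments of a gene by transcript length and by library size and so can be compared between genes. Low values fell on steps of whole reads, from which the depth was put at 7500000 reads in WT and 10470000 in KO, and the counting intervals below rest on these. They are exact 95% intervals, they cover counting error only, and the amplified cDNA carried no molecular identifiers. Stap1 itself had 62.0 FPKM in WT and 0.309 FPKM in KO. Of the sorting antigens, Kit had 468 and 30.1 FPKM, Ly6a (Sca-1) 285 and 106 FPKM, and Cd34 281 and 194 FPKM. Of the lineage antigens, Cd3e had 0.869 and 1.09 FPKM, Cd8a 0.369 and 0.132 FPKM, and Itgam 1.82 and 1.56 FPKM. The sorted cells also held mast cell transcripts at high levels. The 12 mast cell and basophil markers summed to 51884 FPKM in WT and 5332 FPKM in KO, none was at 0, and 12 of 12 were lower in KO, 11 of them past 2-fold. The 7 neutrophil markers that could be compared summed to 612 and 4762 FPKM, and all 7 were at least 2-fold higher in KO. They were the primary granule genes Mpo, Elane, Prtn3 and Ctsg, together with Ms4a3, Hp and Lyz2. The part of these cell types in the differences below was not tested.

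Taken over the 10 feedback genes, 6 were lower in KO by at least 2-fold (Dusp1, Dusp4, Dusp6, Spry1, Spred1 and Spred2), 1 was at least 2-fold higher (Dusp2) and 3 were within 2-fold (Dusp5, Dusp10 and Spry2). Among all 12507 genes with at least 0.1 FPKM in both libraries, 22.9% were at least 2-fold lower and 12.3% at least 2-fold higher. Among the 7577 of them that averaged 1 FPKM or more and had a transcript within the range of lengths of the feedback genes, these shares were 20.7% and 10.3%. The median log2 ratio, as log2((STAP-1 KO + 0.1)/(WT + 0.1)), was -1.13 for the 10 genes and -0.04 for all 10974 genes that averaged 1 FPKM or more. With 9 of the 10 log2 ratios below 0, Dusp2 was the gene that went the other way. The summed level of the 10 genes was 1311 FPKM in WT and 555 FPKM in KO, and Dusp1 alone made up 75.5% and 67.7% of these sums.

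**Figure D1:**
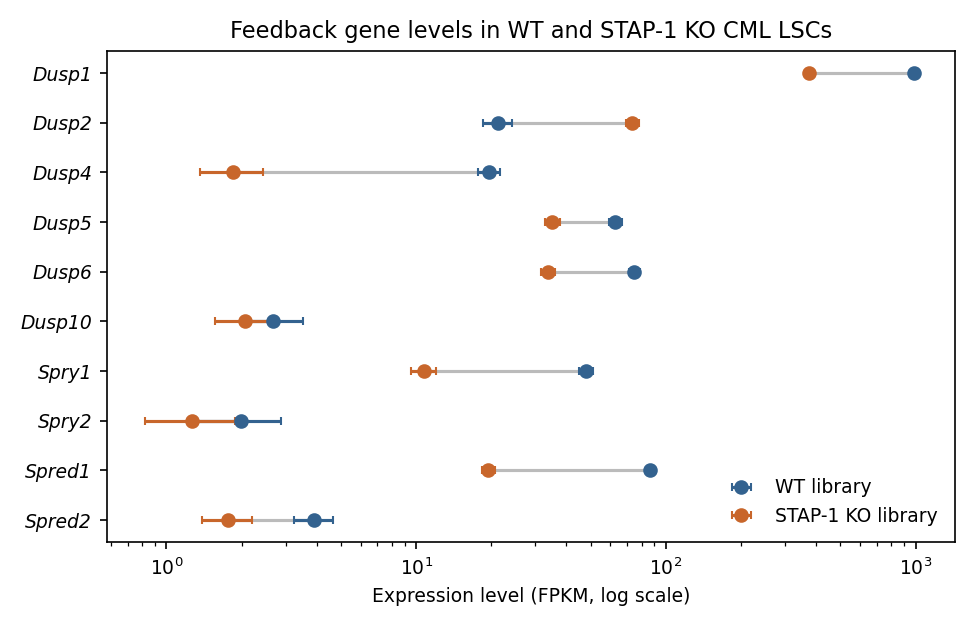
Levels of the 10 feedback genes in FPKM (log axis) in WT (blue) and the KO library (orange), with exact 95% counting intervals and a grey line between the 2 values of each gene. Dusp2 is the gene whose KO value lies to the right of its WT value (73.5 against 21.3 FPKM), and the intervals of Dusp10 and of Spry2 overlap between the libraries.

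Among the nuclear phosphatases, Dusp1 (MKP-1), an immediate-early gene whose product acts mainly on p38 and JNK, lies at chr17:26505591-26508472. It had 989 FPKM in WT and 376 FPKM in KO, or about 13221 and 7011 reads. The level was thus 2.63-fold lower in KO (counting interval from 2.56 to 2.71). Dusp1 was one of the most abundant transcripts of these cells, at rank 59 of all genes in WT and rank 208 in KO.

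Dusp2 (PAC-1), a phosphatase of ERK and p38 that is known from activated blood cells, lies at chr2:127336159-127338377. It had 21.3 FPKM in WT and 73.5 FPKM in KO, from about 225 and 1084 reads. The level was 3.45-fold higher in KO (interval from 2.99 to 4.002). Its share of the summed DUSP level was 1.82% in WT and 14.1% in KO. Of the genes that averaged 1 FPKM or more, 97.3% had a lower log2 ratio than the 1.78 of Dusp2.

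Dusp4 (MKP-2), a further nuclear phosphatase, which acts on ERK and JNK, lies at chr8:34807610-34819894. It had 19.7 FPKM in WT and 1.85 FPKM in KO, from about 373 and 49 reads. This was the largest difference of the 10 genes, 10.6-fold lower (interval from 7.87 to 14.6). Of the same genes, 2.37% had a lower log2 ratio than Dusp4. Dusp2 and Dusp4 had nearly the same level in WT, with overlapping intervals (from 18.6 to 24.3 and from 17.7 to 21.7 FPKM), and in KO the level of Dusp2 was 39.7 times that of Dusp4. The log2 ratios of this pair differed by 5.12, the widest gap among the 15 DUSP pairs.

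Dusp5, whose product binds ERK alone and holds it in the nucleus, lies at chr19:53529145-53541809. It had 62.7 FPKM in WT and 35.1 FPKM in KO, 1.79-fold lower (interval from 1.63 to 1.96). This interval, which covers counting error on estimated reads only, ended just below the 2-fold cut-off. Dusp6 (MKP-3), the cytoplasmic ERK phosphatase, lies at chr10:99263231-99267489. It had 74.9 FPKM in WT and 33.8 FPKM in KO, 2.21-fold lower (interval from 2.04 to 2.41). The log2 ratios of these ERK-specific phosphatases differed by 0.31, and Dusp6 was the more abundant in WT, while their intervals overlapped in KO (from 32.8 to 37.6 FPKM for Dusp5 and from 31.7 to 36.1 FPKM for Dusp6). Dusp10 (MKP-5), the phosphatase of p38 and JNK, lies at chr1:184034381-184075636. It had 2.66 FPKM in WT and 2.06 FPKM in KO, from about 52 and 56 reads, and the interval of its ratio, from 0.871-fold to 1.93-fold lower, held equality.

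The 6 DUSP genes form 15 pairs, of which 10 had log2 ratios of the same sign and 5 of opposite sign. The 5 opposite pairs were those that contain Dusp2. Counting intervals of the log2 ratios overlapped in 1 pair, Dusp5 with Dusp10, and were apart in the other 14. The quartiles of the log2 ratio of all genes that averaged 1 FPKM or more were -0.88 and 0.59. How often pairs of genes at large were apart was not counted, so the 14 pairs do not set these paralogs off from other genes. By target, the ERK-specific Dusp5 and Dusp6 had log2 ratios of -0.83 and -1.14, and Dusp1 and Dusp10, which act on p38 and JNK, had log2 ratios of -1.40 and -0.36. By place in the cell, the 4 nuclear phosphatases ranged from -3.34 to 1.78.

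**Figure D2:**
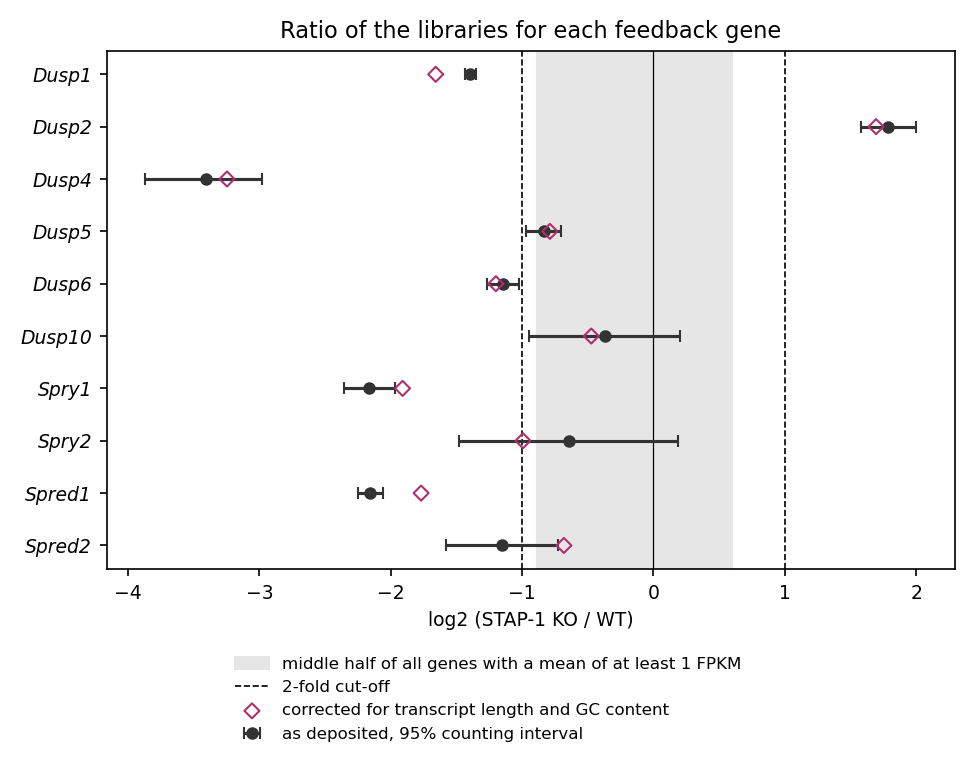
Log2 ratio of STAP-1 KO to WT for each feedback gene, as deposited without pseudocount (black, with exact 95% counting intervals) and after correction for transcript length and GC content (open diamonds). The grey band spans the quartiles of all genes that averaged 1 FPKM or more and the dashed lines are the 2-fold cut-off. Dusp4 lies farthest to the left, Dusp2 is the gene right of 0, and the intervals of Dusp10 and Spry2 cross 0.

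The Sprouty genes were both lower in KO by value, but not to a like extent. Spry1, a membrane-associated inhibitor of receptor tyrosine kinase signaling to RAS, lies at chr3:37639947-37644599. It had 48.0 FPKM in WT and 10.7 FPKM in KO, from about 923 and 288 reads, which is 4.48-fold lower (interval from 3.92 to 5.12). Spry2, its paralog, which also binds the ubiquitin ligase CBL, lies at chr14:105891947-105896819. It had 1.99 FPKM in WT and 1.27 FPKM in KO, from about 28 and 25 reads. The interval of its ratio ran from 0.879-fold to 2.80-fold lower, so a difference in either direction was not detectable at this depth. Spry1 made up 96.0% of the summed Sprouty level in WT and 89.4% in KO. The log2 ratio of Spry1 was lower than that of Spry2 by 1.55, and their counting intervals were apart. With length and GC content corrected for, the difference was -0.94 and the shifted intervals overlapped (from -2.11 to -1.72 for Spry1 and from -1.83 to -0.16 for Spry2).

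The SPRED genes followed the same order, with the more abundant paralog lower by the larger factor. Spred1, which is mutated in Legius syndrome and whose product also has a domain that binds KIT, lies at chr2:117121071-117182279. It had 86.8 FPKM in WT and 19.5 FPKM in KO, from about 3781 and 1185 reads, which is 4.45-fold lower (interval from 4.17 to 4.76). Spred2, which acts on RAS in the same manner, lies at chr11:19924442-20024026. It had 3.91 FPKM in WT and 1.76 FPKM in KO, from about 124 and 78 reads, 2.22-fold lower (interval from 1.66 to 2.99). This interval held the 2-fold cut-off, so the place of Spred2 past it rests on a value that counting error can move to the other side. The level of Spred1 was 22.2 times that of Spred2 in WT and 11.1 times in KO. Nf1, the RAS GTPase activating protein that SPRED proteins recruit, had 0.481 and 0.164 FPKM.

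In the WT library the order of the levels was Dusp1, Spred1, Dusp6, Dusp5, Spry1, Dusp2, Dusp4, Spred2, Dusp10 and Spry2. In the KO library it was Dusp1, Dusp2, Dusp5, Dusp6, Spred1, Spry1, Dusp10, Dusp4, Spred2 and Spry2. Dusp2 thus stood below Spry1 in WT and next to Dusp1 in KO, and Spred1 next to Dusp1 in WT and below Dusp6 in KO. By counting intervals, the neighbours that could not be told apart in WT were Dusp2 and Dusp4, Spred2 and Dusp10, and Dusp10 and Spry2. In the KO library they were Dusp5 and Dusp6, and each neighbour pair among the last 4 genes. The last 4 genes of the KO library lay between 1.27 and 2.06 FPKM. These intervals do not cover errors in the transcript lengths by which FPKM values are divided.

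The 10 genes share features that did not enter the choice. The longest coding transcript has 4 exons in Dusp1, Dusp2, Dusp4, Dusp5 and Dusp10, 3 in Dusp6, 2 in both Sprouty genes and 7 in both SPRED genes, and its length runs from 1617 bases for Dusp2 to 6016 bases for Spred1 (GENCODE M21). Length matters here because the ratio of these libraries went with it. Across 10865 genes that averaged 1 FPKM or more, Spearman's rank correlation of the log2 ratio with transcript length was -0.40, a description across genes of 1 pair of libraries. Dusp2, the gene that was higher, has the shortest transcript of the 10. The 1082 genes from 1192 to 1657 bases had a median log2 ratio of 0.47 and an upper quartile of 0.91, below the 1.78 of Dusp2. Dusp4, Spry1, Dusp10 and Dusp6 lie within 56 bases of each other in length (from 2740 to 2796 bases), and their log2 ratios of -3.34, -2.15, -0.36 and -1.14 were far apart. The 1086 genes from 2521 to 2950 bases had a median of 0.09, with quartiles of -0.59 and 0.59. With transcript length and GC content corrected for, Dusp1 had -1.66, Dusp2 1.69, Dusp4 -3.18, Dusp5 -0.79, Dusp6 -1.20, Dusp10 -0.46, Spry1 -1.90, Spry2 -0.96, Spred1 -1.76 and Spred2 -0.64. Every gene kept its direction, and Spred2 was no longer past the 2-fold cut-off.

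**Figure D3:**
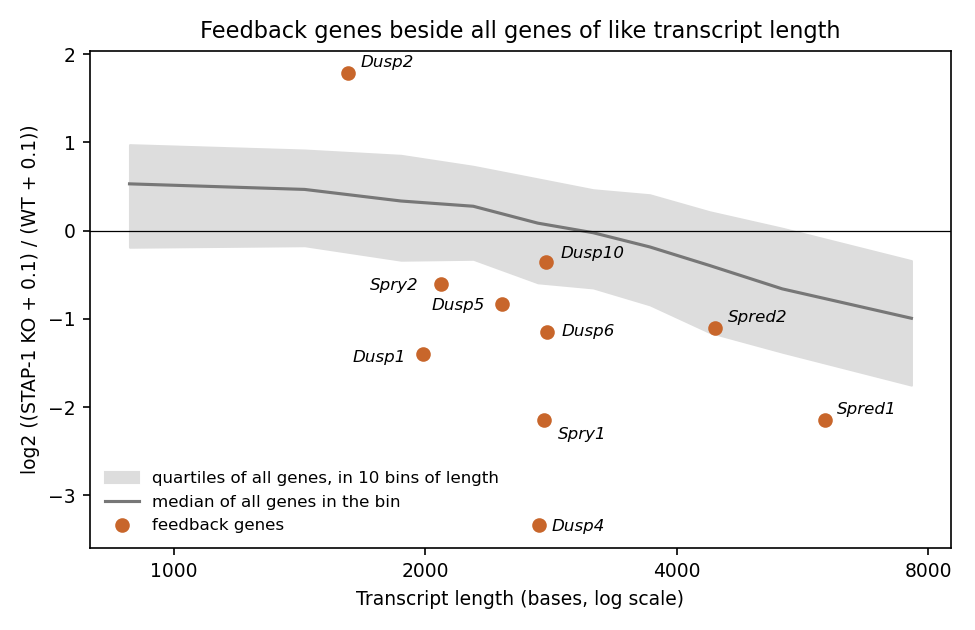
Log2 ratio of the libraries (pseudocount 0.1 FPKM) against the length of the longest coding transcript (log axis) for the 10 feedback genes (orange), over the median (line) and quartiles (band) of all genes that averaged 1 FPKM or more in 10 bins of length. Dusp2 lies above the band, Spred2 and Dusp10 lie within it, and the other 7 genes lie below it.

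The relatives of these genes were examined next. Of the 9 other MAP kinase phosphatase and Sprouty-related genes on a list written from general knowledge, 8 could be compared, and 5 of them were at least 2-fold lower in KO and 0 higher. The p38 and JNK phosphatase gene Dusp16 had 2.75 FPKM in WT and 0.413 FPKM in KO. The others past the cut-off were Dusp3 (5.74 and 1.63 FPKM), whose product is a small phosphatase of ERK and JNK, Dusp14 (3.56 and 1.24 FPKM), Dusp8 (1.24 and 0.394 FPKM) and Dusp9 (0.696 and 0.268 FPKM, from about 13.1 and 7.06 reads). Spry3 was listed at 0 in both libraries and Spred3 had 0.243 and 0.199 FPKM. The count of 5 rested on low values: it was 2 with a floor of 1 FPKM in both libraries and 3 among genes that averaged 1 FPKM or more, and the interval of Dusp9 held equality (from 0.961-fold to 7.67-fold lower). With length and GC content corrected for, Dusp8 had a log2 ratio of -0.43. Over the 5 relatives that averaged 1 FPKM or more, the median log2 ratio was -1.45, and -1.27 with the correction. These relatives were all below 10 FPKM in both libraries, and none was higher in KO by value.

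Of the kinases on which the phosphatases act, Mapk3 (ERK1) had 40.9 FPKM in WT and 23.5 FPKM in KO. Mapk14 (p38 alpha) had 135 and 83.5 FPKM, Mapk9 (JNK2) 27.0 and 20.9 FPKM, and Mapk8 (JNK1) 0.745 and 0.964 FPKM. These 4 were within 2-fold. Of the 25 genes of the RAS to ERK cascade, 8 were at least 2-fold lower and 1 higher, with a median log2 ratio of -0.39 over the 22 that averaged 1 FPKM or more. Among all genes compared, 22.9% were at least 2-fold lower and 12.3% higher, and this and the other list counts are to be read against these shares. The median transcript length of this list was 4678 bases. Genes from 4037 to 4765 bases had a median log2 ratio of -0.40. The adaptor gene Gab2, which links BCR-ABL to RAS and PI3K signaling, had 52.3 FPKM in WT and 3.66 FPKM in KO. The RAS exchange factor genes Rasgrp4 (8.09 and 1.54 FPKM) and Sos2 (11.6 and 4.08 FPKM) and the ERK-activated kinase gene Rps6ka2 (2.67 and 0.514 FPKM) were lower as well, and Rasgrp2 (5.24 and 25.6 FPKM) was the gene that was higher. The correction for length and GC content left 5 genes of this cascade lower and 2 higher, with a median of -0.22. Shares of all genes were not counted after the correction.

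Of the RAS GTPase activating proteins, which turn RAS off and include the SPRED partner Nf1, 8 of 9 genes could be compared, and 3 were at least 2-fold lower and 0 higher. They were Rasal3 (69.0 and 26.02 FPKM), Rasa3 (54.9 and 24.0 FPKM) and Nf1. With length and GC content corrected for, these 3 had log2 ratios of -0.96, -0.57 and -0.29, and the list had 0 lower genes and 2 higher. Of the 21 genes of the JNK and p38 cascades, 19 could be compared, and 6 were at least 2-fold lower and 0 higher, with a median log2 ratio of -0.86 over the 17 that averaged 1 FPKM or more, and -0.36 with the correction. Map3k8, a kinase upstream of MEK that toll-like receptors activate, had 39.9 FPKM in WT and 9.22 FPKM in KO. Map3k2 (2.87 and 0.758 FPKM), Map3k1 (8.14 and 3.27 FPKM), Map3k3 (26.2 and 11.8 FPKM) and Map2k4 (87.8 and 41.5 FPKM) were the next, and the p38 kinase gene Mapk13 (2.15 and 0.810 FPKM), named to complete the count, was also lower. With the correction, Map3k1 had a log2 ratio of -0.31 and Map3k3 of -0.91, no longer past the cut-off. Map2k3 (246 and 130 FPKM) came to lie past it at -1.12, so that 5 genes of this list were lower. The medians of both kinase cascades lay nearer to 0 than the median of the feedback genes.

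The list of ERK-induced transcription factors and targets holds genes that can rise together with DUSP and Sprouty genes when the cascade is switched on. It also holds Jund, which is less inducible, and Elk1, Elk3, Elk4 and Srf, factors through which such genes are switched on. Of the 24 listed genes, 23 could be compared, and 17 were at least 2-fold lower and 1 higher in KO. Elk1, Elk4 and Jund were among the 17. The median log2 ratio was -1.52 over the 21 genes that averaged 1 FPKM or more. Egr2 had 52.2 FPKM in WT and 2.91 FPKM in KO, and Egr3 had 4.64 and 0.316 FPKM. The cytokine gene Lif had 73.5 and 8.85 FPKM, Phlda1 145 and 20.04 FPKM and the AP-1 gene Fosb 36.4 and 5.46 FPKM. Myc, with 59.3 and 169 FPKM, was the gene that was higher, and it is named here because of that value. Dusp2 and Myc were thus the genes of the feedback and target lists past the cut-off upwards. Several of these genes also respond to cell handling. Of 16 handling and stress response genes, 6 of which are on the ERK target list too, 7 were at least 2-fold lower and 1 higher, and their levels summed to 4879 FPKM in WT and 2229 FPKM in KO. The lower genes were Fos, Fosb, Jun, Junb and Ier3, which are on both lists, and Klf6 and Nr4a1, which are not. Atf3, Btg2, Dnajb1, Hspa1a, Hspa1b, Ier2, Socs3 and Zfp36 were within 2-fold. Fos had 1359 and 460 FPKM, Jun 510 and 165 FPKM, Ier3 766 and 265 FPKM and Klf6 397 and 106 FPKM. The heat shock protein gene Hsp90aa1, named for this value, was the gene that was higher (69.8 and 152 FPKM). Dusp1 is itself an early stress gene, and the part of handling in these values was not tested.

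**Figure D4:**
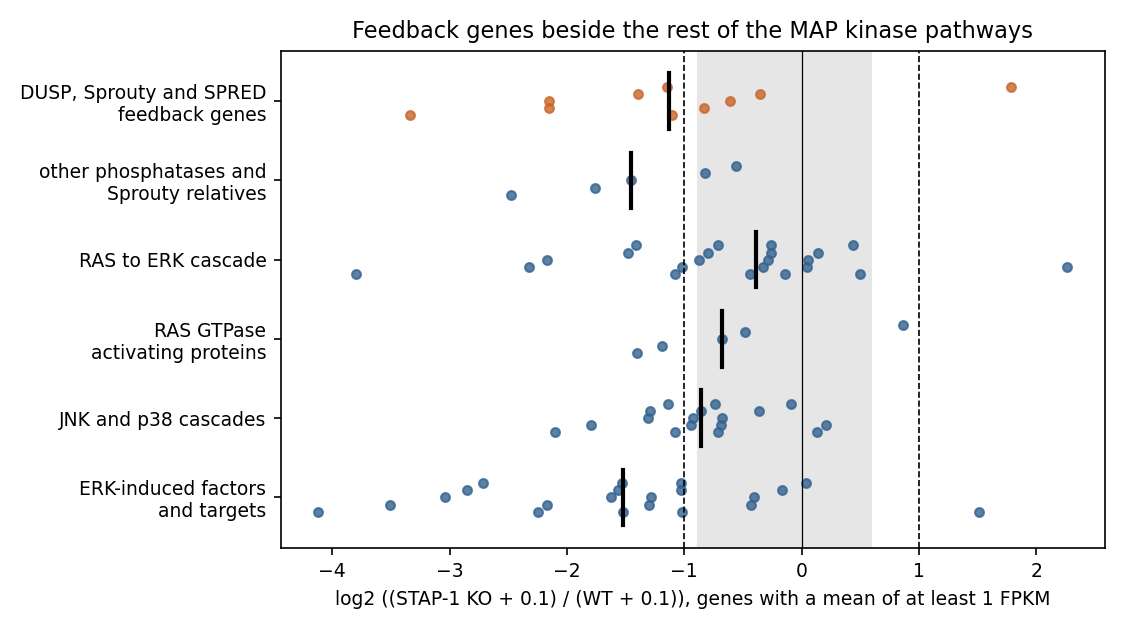
Log2 ratio of the libraries (pseudocount 0.1 FPKM) for the 10 feedback genes (orange) and for 5 lists of related genes (blue), each point a gene that averaged 1 FPKM or more, with black bars at the medians. The grey band spans the quartiles of all genes and the dashed lines are the 2-fold cut-off. The medians of the feedback genes (-1.13), of their relatives (-1.45) and of the list of ERK-induced factors and targets (-1.52) lie left of the cut-off. That of the RAS to ERK cascade (-0.39) lies inside the band.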

How the data were processed

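Libraries of GFP+ CD45.2+ LSK cells gave single reads of 75 bases, which the authors aligned with TopHat 2.0.13 and Bowtie2 2.2.3 to mm10. They used SAMtools 1.0 (0.1.19 in the submitters' processing notes) and deposited FPKM values made with Cuffnorm 2.2.1. The gene annotation, the scaling of the libraries and the total reads are not given in the sources used here.

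The libraries were compared in Python 3.11.15 (scipy 1.17.1, pandas 2.3.3, numpy 2.4.6), and drawn with matplotlib 3.10.9. Genes counted as past the cut-off had a ratio of at least 2 and at least 0.1 FPKM in both libraries. Log2 ratios used a pseudocount of 0.1 FPKM, which understates differences of low genes, whereas fold values used none. Depth was estimated from FPKM values between 0.02 and 0.3 of genes with 1 GENCODE M21 transcript, where 47.5% of 314 WT values and 49.0% of 390 KO values were whole to 0.01 read (2% by chance), with 208 bases taken off each transcript. Reads were computed from the longest coding transcript, and the ratio interval was the exact binomial interval given their sum. The correction subtracted the median of genes in 20 bins of length and then of GC content, and lowered the rank correlation with length to -0.04. Symbols matched GENCODE M21 (GRCm38) as written for 20911 genes and through an older symbol for 1901, and 472 were not matched. The steps were tested on simulated data.

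The members, the gene lists and the cut-off were chosen with earlier results of these data known. Named beside the members were Stap1, the sorting antigens, the MAP kinases the phosphatases act on and up to 5 genes of a list past the cut-off ranked by log2 ratio with 1 FPKM added, and single genes noted as exceptions, lineage antigens and relatives at low values among them. Azu1, Ly6g, Trac and Hbb-bt of the marker lists were not analysed here, and some single genes of the lists are not reported here. FPKM floors, fold cut-offs, pseudocounts, scalings and the correction were varied.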

Additional observations from a re-analysis of the deposited data

How the results depend on the processing

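At a 4-fold cut-off, 3 of the 10 genes were lower (Dusp4, Spry1 and Spred1) and 0 higher, and of the 88 genes in the 5 related lists, 12 were lower and 1 higher, against 39 and 2 at 2-fold. At a 1.5-fold cut-off, 5 genes of those lists were higher, and 5 were as well with transcript length and GC content corrected for. The cause was not tested. Under the FPKM floors and the 4 scalings of the libraries, the same 6 feedback genes were lower and Dusp2 was higher, and at 1.5-fold Dusp5 and Spry2 joined the lower genes. The correction left 5 lower genes, without Spred2. Shares of all genes were counted only at the 2-fold cut-off and without the correction. The counts at other cut-offs and after the correction thus have no such share to be read against. The median log2 ratio of the 10 genes ran from -1.03 (libraries set to the same FPKM sum) to -1.19 (sum without the 100 highest genes) under the scalings, was -1.08 after the correction, -0.98 at a pseudocount of 1 FPKM and -1.40 over members that averaged 5 FPKM or more. No gene changed direction in these settings. The gap between Spry1 and Spry2 was -1.55 as deposited and -0.94 after the correction, and that between Spred1 and Spred2 -1.04 and -1.12. No paired analysis was possible because each genotype had 1 library, and for the same reason no library could be left out. Depth limited the values of Spry2, Dusp10, Dusp4 in KO and Spred2, which rested on 25 to 124 estimated reads.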

Other observations

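Divergence between paralogs was also seen upstream of the feedback genes, in the RasGRP exchange factors that load RAS with GTP downstream of diacylglycerol and calcium. Rasgrp2 had 5.24 FPKM in WT and 25.6 FPKM in KO. Rasgrp1 had 8.74 and 3.22 FPKM, Rasgrp3 0.957 and 0.343 FPKM, and Rasgrp4, known from mast cells, 8.09 and 1.54 FPKM. The RAS genes Nras (29.2 and 30.3 FPKM) and Hras (listed as Hras1, 37.3 and 52.7 FPKM) were within 2-fold. The RAF genes Araf (74.2 and 61.9 FPKM) and Braf (3.70 and 1.98 FPKM) and the MEK genes Map2k1 (59.4 and 48.8 FPKM) and Map2k2 (44.5 and 60.4 FPKM) were within 2-fold as well. These genes were chosen after their values were seen.

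The other marker lists gave the following summed levels, with the WT library first. The T cell markers had 15.7 and 49.3 FPKM, of which Lck made up 11.8 and 41.9 FPKM. The B cell markers had 4.08 and 18.8 FPKM, of which Cd79b made up 3.10 and 17.8 FPKM, while Ms4a1 had 0.505 and 0.0517 FPKM, with Ebf1 and Pax5 at 0 in both libraries. The erythroid markers had 2554 and 1281 FPKM and went both ways: Hba-a2 had 773 and 15.9 FPKM and its near-identical copy Hba-a1 34.8 and 380 FPKM, a split between copies that is uncertain, while Klf1 (103 and 108 FPKM) and Epor (28.8 and 28.5 FPKM) were within 2-fold. The megakaryocyte markers had 199 and 135 FPKM. Itga2b (123 and 32.5 FPKM) carried the lower sum, whereas 4 of the 6 markers were higher by value, among them Ppbp (5.05 and 17.97 FPKM), and the median log2 ratio was 0.20. The monocyte and macrophage markers had 191 and 141 FPKM. Of these 6 markers, 4 were at least 2-fold lower, with a median log2 ratio of -1.86 over the 5 that averaged 1 FPKM or more, and Ly6c2 went the other way (20.5 and 98.0 FPKM). The part of these cells in the levels of the feedback genes was not tested.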
